A study of Arabidopsis with 9 samples.

Results

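The expression of 10 sugar transporter genes was followed in Arabidopsis seedlings: SWEET1, SWEET2, SWEET4, SWEET11, SWEET12, SWEET13, SWEET15, SWEET16 and SWEET17 of the SWEET family, and the sucrose symporter gene SUC2. They were chosen by gene identifier, and all 10 were found among the 31747 loci of the authors' deposited table, each at a locus that carries 1 gene name. The study measured gene expression by RNA sequencing of total RNA from whole seedlings that were 14 days old and grown in long days without treatment. It had 9 samples: per the labels, the mutants swi3d-1 and syd-5 and the wild type (WT) were each sampled as 3 biological replicates. The gene SYD encodes the motor ATPase, and SWI3D a scaffold protein, of SWI/SNF chromatin remodellers, which use ATP to move nucleosomes, and syd-5 and swi3d-1 are mutant alleles of these genes. The table has 3 conditions: WT, syd-5 and one under a code that ends in 3d and is found in no label. Of the labelled genotypes only swi3d-1 lacks an entry under its own name. Since no label links the code to that genotype, and a condition was not named from its measured levels, this one is called the unlabelled condition.

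SWEET proteins form pores through which sugars move down their concentration gradient, whereas SUC proteins use the proton gradient to carry sucrose into the cell. In leaves, sucrose made in the mesophyll leaves the phloem parenchyma through SWEET11 and SWEET12 and is taken up into the companion cells by SUC2, the step called apoplastic phloem loading. Other SWEET proteins lie in the tonoplast, the membrane of the vacuole, and carry glucose or fructose in and out of that store. The family is divided into 4 clades: SWEET1 and SWEET2 belong to clade I, SWEET4 to clade II, SWEET11, SWEET12, SWEET13 and SWEET15 to clade III, whose members carry mainly sucrose, and SWEET16 and SWEET17 to clade IV, which is found at the tonoplast.

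The values are FPKM, fragments scaled to transcript length and to the number of mapped fragments, given as 1 pooled value per condition in the authors' deposited table. Neither values of single replicates nor the sequencing depth could be used, so no spread between replicates could be computed, and the error of a change is known only through the authors' test. A call means q < 0.05 in that test, with q as the authors adjusted it. The standard errors given are those of the log2 ratio of FPKM to WT, implied by the deposited test statistic and p. Comparisons were made over the 18505 loci that reached 1 FPKM somewhere, with 9 of the 10 genes among them. SYD had 24.3 FPKM in the unlabelled condition and 4.11 in syd-5, against 23.1 in WT, and was called lower in syd-5 (q = 0.000567) but not in the unlabelled condition (q = 0.767). SWI3D had 3.81 FPKM in the unlabelled condition and 16.0 in syd-5, against 16.4 in WT, and was called lower in the unlabelled condition (q = 0.000567) but not in syd-5 (q = 0.903). The drop in SWI3D thus lies in the unlabelled condition, for which no label gives a genotype.

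The 10 genes covered a wide range of levels, and FPKM, being per length, allows them to be set side by side. In the unlabelled condition the order was SWEET11 (334 FPKM), SUC2 (138), SWEET12 (121), SWEET1 (30.9), SWEET17 (20.9), SWEET2 (13.4), SWEET16 (6.83), SWEET4 (1.57), SWEET15 (1.49) and SWEET13 (0.836). In syd-5 the order was the same, with SWEET11 at 321 FPKM, SUC2 at 117, SWEET12 at 96.1 and SWEET1 at 39.3. WT differed from both at 2 places. There SWEET1 (74.4 FPKM) stood above SWEET12 (66.0) by a factor of 1.13, and SWEET13 (0.254) above SWEET15 (0.198). Neighbours whose log2 gap lay within the 95% range of the combined standard error of their ratios to WT were SUC2 and SWEET12 in the unlabelled condition and in syd-5, and SWEET1 and SWEET12 in WT. In the low range this held for SWEET4 and SWEET15 in the unlabelled condition and syd-5, for SWEET15 and SWEET13 in the unlabelled condition, and for SWEET4, SWEET13 and SWEET15 in WT. The gap of SWEET15 and SWEET13 in syd-5 had no error, because SWEET13 was not tested there.

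**Figure D1:**
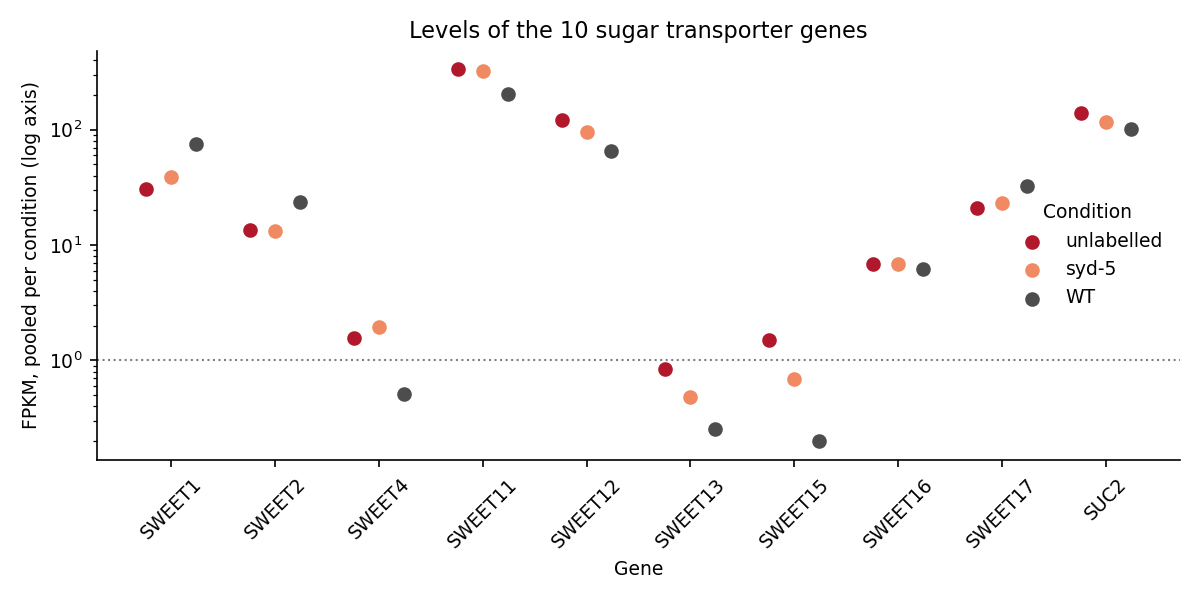
FPKM of the 10 genes on a log axis, 1 point per pooled condition (the unlabelled condition, syd-5 and WT from left to right). The dotted line marks 1 FPKM. SWEET11 was highest in every condition (334 FPKM in the unlabelled condition, 321 in syd-5 and 204 in WT), and SWEET4, SWEET13 and SWEET15 were below 1 FPKM in WT.

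SWEET11 and SWEET12, the sucrose exporters of the phloem parenchyma, rose in both conditions against WT. SWEET11 (AT3G48740, chromosome 3, 18052466 to 18054755, TAIR10) had 334 FPKM in the unlabelled condition and 321 in syd-5, against 204 in WT. It was 1.64-fold higher in the unlabelled condition (log2 ratio 0.71, SE 0.129) and 1.58-fold higher in syd-5 (0.66, SE 0.129), with a deposited q of 0.000567 in both. SWEET12 (AT5G23660, chromosome 5, 7971651 to 7973925) had 121 FPKM in the unlabelled condition and 96.1 in syd-5, against 66.0 in WT. It was 1.83-fold higher in the unlabelled condition (0.87, SE 0.125) and 1.46-fold higher in syd-5 (0.54, SE 0.126), again with q = 0.000567 in both, the smallest q in the authors' deposited table. SWEET11 and SWEET12 are close relatives, and how the authors assigned reads that match both is not given in the sources used here. Their summed level, which depends less on such a split, was 454 FPKM in the unlabelled condition and 418 in syd-5, against 269.7 in WT. The ratio of SWEET11 to SWEET12 was 2.76 in the unlabelled condition, 3.35 in syd-5 and 3.09 in WT.

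SUC2, the companion cell symporter that loads the exported sucrose into the phloem, was called higher in the unlabelled condition but was not called in syd-5. SUC2 (AT1G22710, chromosome 1, 8030641 to 8033117) had 138 FPKM in the unlabelled condition and 117 in syd-5, against 102 in WT. It was 1.35-fold higher in the unlabelled condition (log2 ratio 0.44, SE 0.126, deposited q = 0.00389). In syd-5 its ratio was 1.14, with a 95% interval of 0.964 to 1.35 and q = 0.301. The difference between the unlabelled condition and syd-5 did not pass its test either, so SUC2 is not shown to respond differently in them. SWEET11 stood at 2.41 times the level of SUC2 in the unlabelled condition and 2.76 times in syd-5, against 1.99 times in WT.

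SWEET1 and SWEET2, the clade I genes, fell in both conditions. SWEET1 encodes a glucose uniporter of the plasma membrane. SWEET1 (AT1G21460, chromosome 1, 7511850 to 7513361) had 30.9 FPKM in the unlabelled condition and 39.3 in syd-5, against 74.4 in WT. This is 0.414 of the WT level in the unlabelled condition (log2 ratio -1.27, SE 0.137) and 0.527 in syd-5 (-0.92, SE 0.134), with a deposited q of 0.000567 in both. SWEET1 had the largest fall of the 10 genes in each comparison, and 1.962% of all kept and tested loci lay below it in the unlabelled condition and 4.47% in syd-5 by log2 fold change.

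SWEET2 encodes a tonoplast glucose transporter known from roots, where it limits the loss of sugar to the soil. SWEET2 (AT3G14770, chromosome 3, 4956189 to 4959704) had 13.4 FPKM in the unlabelled condition and 13.2 in syd-5, against 23.8 in WT. It was at 0.564 of the WT level in the unlabelled condition (-0.83, SE 0.150) and 0.556 in syd-5 (-0.85, SE 0.151), with q = 0.000567 in both. The table gives the same interval to SWEET2 and to the adjacent gene AT3G14760, which had 3.52 FPKM in the unlabelled condition and 5.51 in syd-5, against 8.30 in WT, and was not called (q = 0.148 in the unlabelled condition and 0.313 in syd-5). Whether the libraries kept strand is not given in the sources used here, so reads of overlapping transcripts cannot be told apart. The other 9 genes have an interval of their own.

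SWEET17 fell in both conditions, whereas its clade IV partner SWEET16 was not called in either. SWEET17 is a fructose carrier of the tonoplast, known from leaves and roots. SWEET17 (AT4G15920, chromosome 4, 9030497 to 9033527) had 20.9 FPKM in the unlabelled condition and 23.3 in syd-5, against 32.4 in WT. It was at 0.647 of the WT level in the unlabelled condition (log2 ratio -0.63, SE 0.149, deposited q = 0.000567) and at 0.721 in syd-5 (-0.47, SE 0.147, q = 0.0106). With the wider error of the test statistic itself, the 95% interval in syd-5 was 0.509 to 1.02 of the WT level. SWEET16, which carries glucose, fructose and sucrose across the tonoplast, lies on chromosome 3 (AT3G16690, 5684272 to 5686496). SWEET16 had 6.83 FPKM in the unlabelled condition and 6.89 in syd-5, against 6.16 in WT. Its ratio was 1.11 in the unlabelled condition, with a 95% interval of 0.822 to 1.497, and 1.12 in syd-5, with an interval of 0.830 to 1.51 (q = 0.714 in the unlabelled condition and 0.685 in syd-5). These intervals still hold changes of either sign. SWEET17 stood at 3.07 times SWEET16 in the unlabelled condition and 3.39 times in syd-5, against 5.26 times in WT.

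**Figure D2:**
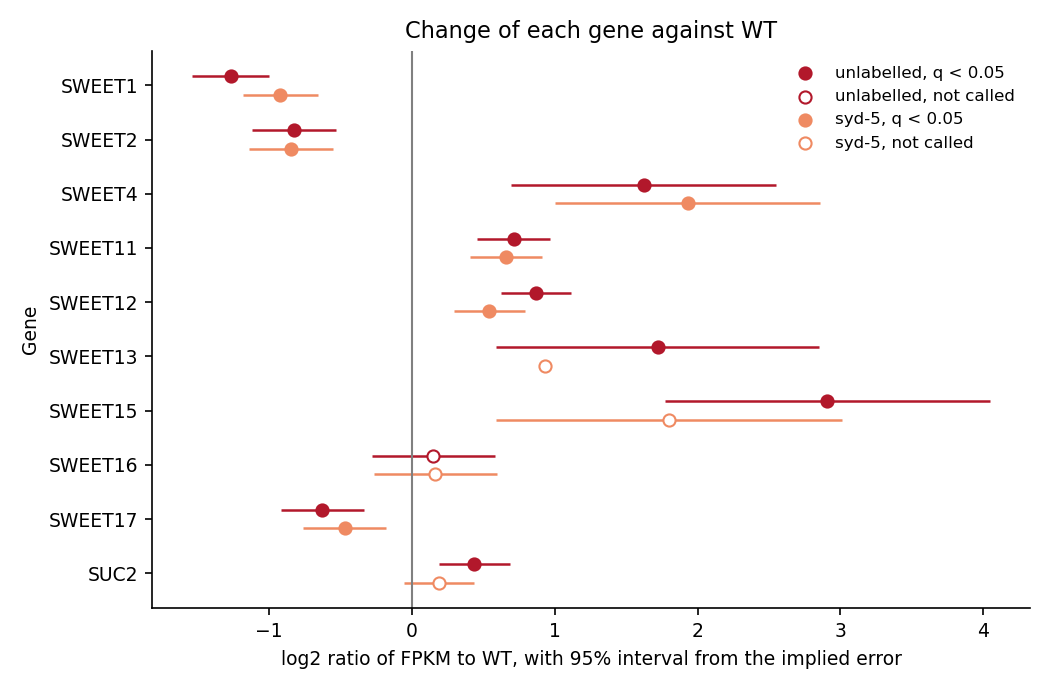
log2 ratio of FPKM to WT for each gene, in the unlabelled condition (upper of each pair) and syd-5 (lower), with 95% intervals from the implied standard error and filled points for q < 0.05. SWEET1, SWEET2 and SWEET17 lie left of 0 in both conditions, SWEET4, SWEET11 and SWEET12 right of 0 in both, and SWEET13 has no interval in syd-5 because it was not tested.

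SWEET4, SWEET13 and SWEET15 were barely expressed in WT, where each was below 1 FPKM, and their changes are known least precisely. SWEET4, a plasma membrane carrier of glucose and fructose, had 1.57 FPKM in the unlabelled condition and 1.95 in syd-5, against 0.511 in WT. SWEET4 (AT3G28007, chromosome 3, 10408092 to 10409745) rose 3.08-fold in the unlabelled condition, with a 95% interval of 1.62 to 5.86 (q = 0.0210), and 3.81-fold in syd-5, with an interval of 2.004 to 7.25 (q = 0.00882). SWEET15, also named SAG29 for its induction in senescence, exports sucrose and takes part in seed filling. SWEET15 (AT5G13170, chromosome 5, 4181042 to 4183306) had 1.49 FPKM in the unlabelled condition and 0.691 in syd-5, against 0.198 in WT. Its 7.51-fold rise in the unlabelled condition, with an interval of 3.41 to 16.5, was the largest fold of the 10 genes (q = 0.00424). In syd-5 the ratio was 3.49, with an interval of 1.504 to 8.08, and the adjusted value did not pass (q = 0.0620), though it did with adjustment within that comparison alone.

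SWEET13, a sucrose carrier, stayed below the filter of 1 FPKM in all conditions. SWEET13 (AT5G50800, chromosome 5, 20665077 to 20667304) had 0.836 FPKM in the unlabelled condition and 0.484 in syd-5, against 0.254 in WT. The authors' deposited table calls it in the unlabelled condition (q = 0.0467, ratio 3.29, interval 1.502 to 7.22) and did not test it in syd-5. With the wider error of the test statistic itself, its interval in the unlabelled condition was 0.840 to 12.9. SWEET4 and SWEET15 passed the filter only through syd-5 or the unlabelled condition and had to be higher than in WT to be kept, so their passing is no support for a rise. The 3 genes together made up 0.735% of the summed FPKM of the 9 SWEET genes in the unlabelled condition and 0.620% in syd-5, against 0.236% in WT.

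In all, 6 of the 10 genes rose, 3 fell and 1 was not called in the unlabelled condition by the authors' deposited table, beside 27.3% of all tested loci called, 13.4% higher and 13.9% lower. Among the 9 kept genes the count was 5 rises and 3 falls, beside a background of 28.1% of 18450 kept and tested loci called in either direction, 13.7% higher and 14.4% lower. In syd-5, 3 genes rose, 3 fell, 3 were not called and SWEET13 was not tested, beside 27.1% of all tested loci called (13.6% in each direction) and 27.9% of the 18442 kept ones, 13.8% higher and 14.1% lower. Over the 7 genes with at least 1 FPKM in WT, 3 rose and 3 fell in the unlabelled condition, and 2 rose and 3 fell in syd-5. The median log2 fold change of the 10 genes, on the scale of log2(FPKM + 1), was 0.49 in the unlabelled condition and 0.22 in syd-5, beside medians over all kept loci of -0.01 in the unlabelled condition and 0.01 in syd-5. Because the genes went both ways, this median describes no common direction. Both comparisons share the same WT value, so their likeness is not a separate result.

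The makeup of the SWEET transcripts can be read from shares of their sum. The 9 genes summed to 530.2 FPKM in the unlabelled condition and 503 in syd-5, against 407 in WT. SWEET11 and SWEET12 made up 85.7% of that sum in the unlabelled condition and 82.9% in syd-5, against 66.2% in WT. SWEET1 and SWEET2 made up 8.35% in the unlabelled condition and 10.4% in syd-5, against 24.1% in WT. SWEET16 and SWEET17 made up 5.24% in the unlabelled condition and 6.01% in syd-5, against 9.46% in WT. These sums come from pooled values and have no error of their own.

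**Figure D3:**
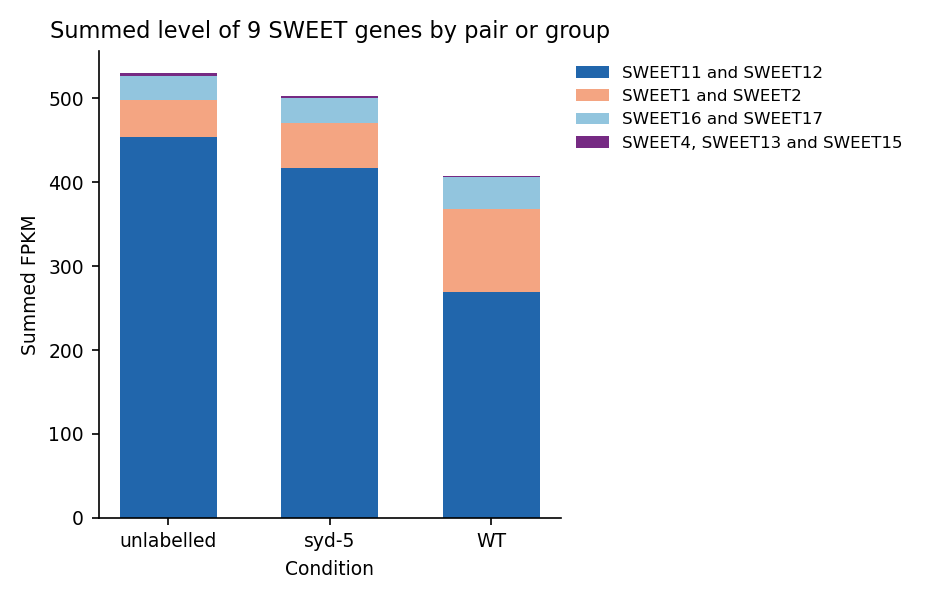
Summed FPKM of the 9 SWEET genes in each pooled condition, stacked by pair or group, with no error available. The SWEET11 and SWEET12 block is 454 FPKM in the unlabelled condition and 418 in syd-5, against 269.7 in WT, while the SWEET1 and SWEET2 block is 44.3 in the unlabelled condition and 52.5 in syd-5, against 98.2 in WT.

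The unlabelled condition and syd-5 were compared with each other through their ratios to WT, since the authors' deposited table holds no direct test. None of the 9 testable genes differed between the unlabelled condition and syd-5 in this test, a normal test of the difference of log2 ratios with Benjamini-Hochberg adjustment, nor at an unadjusted p under 0.05 (0 genes). Over all loci the test called 17 of 18382, or 0.0925%, and 2.25% had an unadjusted p under 0.05 in it. WT drops out of the difference of the 2 ratios, but its error was counted in both. The intervals below are therefore wider than this comparison needs, and real differences can be missed. SWEET12 was 1.26-fold higher in the unlabelled condition than in syd-5, with a 95% interval of 0.988 to 1.598. SWEET1 was at 0.786 of the syd-5 level in the unlabelled condition, with an interval of 0.606 to 1.02. SUC2 stood at 1.19 (0.931 to 1.51) and SWEET17 at 0.897 (0.675 to 1.19). For SWEET15 the ratio was 2.16 with a wide interval of 0.681 to 6.83, and for SWEET4 it was 0.808 (0.325 to 2.005). The ratios of SWEET2 (1.01), SWEET11 (1.04) and SWEET16 (0.990) were nearest to 1, with intervals of 0.760 to 1.35, 0.810 to 1.33 and 0.648 to 1.51. A p that misses the threshold does not show that the conditions are alike for these genes.

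**Figure D4:**
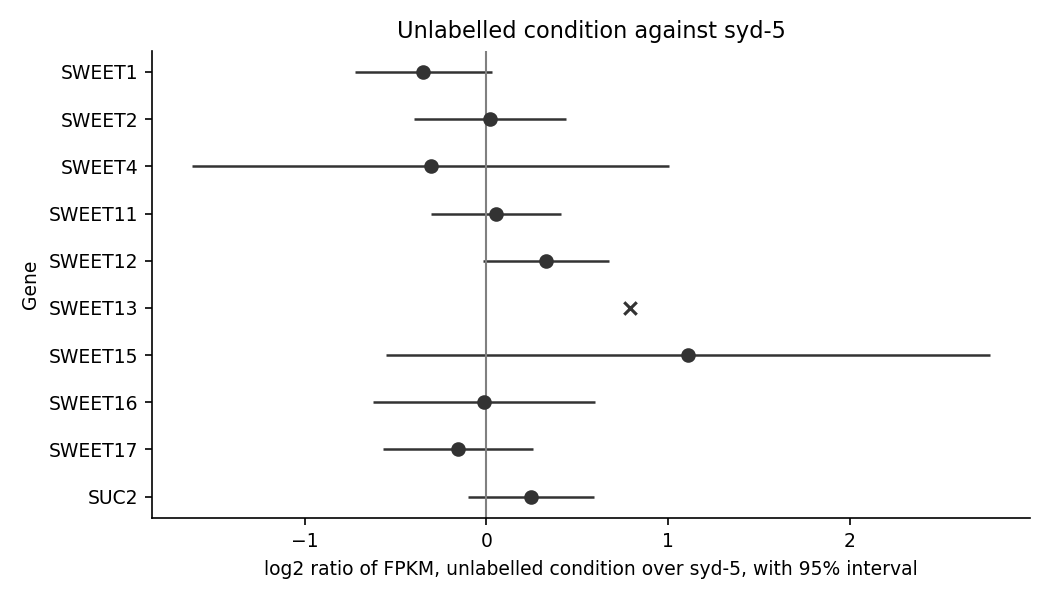
log2 ratio of FPKM in the unlabelled condition over syd-5 for each gene, with 95% intervals, and a cross for SWEET13, which was not tested in syd-5. All 9 intervals include 0, and those of SWEET4 and SWEET15 are the widest. The WT error is counted in both ratios to WT, which widens the intervals.

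The other SWEET genes were nearly silent. Of the 8 in the table, 2 reached 1 FPKM, both only through syd-5 and the unlabelled condition. SWEET3, of clade I, had 3.57 FPKM in the unlabelled condition and 3.07 in syd-5, against 0.411 in WT, and was called in both (q = 0.000567 in the unlabelled condition and 0.00151 in syd-5). SWEET10, which lies next to SWEET13 in the genome and belongs to clade III, had 1.24 FPKM in the unlabelled condition and 1.31 in syd-5, against 0.560 in WT, and was called in syd-5 (q = 0.0434) but not in the unlabelled condition (q = 0.0588). SWEET9 was listed at 0 in all conditions, and SWEET5, SWEET6, SWEET7, SWEET8 and SWEET14 were below 1 FPKM. Of the 8 other SUC genes 4 were kept, 1 of them (SUC7) only through syd-5 and the unlabelled condition. Of these 4 genes 2 rose and 0 fell in each comparison, too few to set against the 28.1% of kept loci called in the unlabelled condition and 27.9% in syd-5. SUC3 had 15.0 FPKM in the unlabelled condition and 14.3 in syd-5, against 10.7 in WT (q = 0.00629 in the unlabelled condition and 0.0225 in syd-5). SUC7 had 3.05 FPKM in the unlabelled condition and 1.92 in syd-5, against 0.368 in WT (q = 0.000567 in both). The near-identical SUC genes can share reads, so the level of SUC7 is uncertain.

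Hexose uptake and vacuolar sugar transport genes were called in both directions. Among all kept loci, 13.7% were called higher and 14.4% lower in the unlabelled condition, and 13.8% higher and 14.1% lower in syd-5. Of 14 STP genes, which take up hexoses with protons, 8 were kept, of which 3 rose and 1 fell in the unlabelled condition, and 4 rose and 0 fell in syd-5. STP1 had 246 FPKM in the unlabelled condition and 193 in syd-5, against 51.6 in WT (q = 0.000567 in both). STP14 had 17.6 FPKM in the unlabelled condition and 18.4 in syd-5, against 7.10 in WT (q = 0.000567 in both), and STP11 had 1.22 FPKM in the unlabelled condition and 0.753 in syd-5, against 0.262 in WT (q = 0.00151 in the unlabelled condition and 0.0168 in syd-5), and reached 1 FPKM in the unlabelled condition alone. STP13 had 19.5 FPKM in the unlabelled condition (q = 0.0917) and 31.8 in syd-5 (q = 0.0150), against 24.1 in WT. The 1 fall among the kept genes in the unlabelled condition was a merged locus of STP3 and 3 other genes, whose reads cannot be split (q = 0.0457). STP5, which stayed below 1 FPKM in all conditions, had 0.237 FPKM in the unlabelled condition and 0.305 in syd-5, against 0.876 in WT, and was called lower in both (q = 0.0109 in the unlabelled condition and 0.0189 in syd-5). Of 7 kept genes of vacuolar sugar transport, 3 rose and 2 fell in the unlabelled condition, and 4 rose and 2 fell in syd-5.

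ERD6, ESL1 and ERDL6 were among those rises. ERDL6 exports glucose from the vacuole, and ERD6 and ESL1 belong to the same family of monosaccharide transporters. ERD6 had 212 FPKM in the unlabelled condition and 182 in syd-5, against 95.7 in WT. ESL1 had 17.7 FPKM in the unlabelled condition and 14.8 in syd-5, against 8.49 in WT. ERDL6 had 67.7 FPKM in the unlabelled condition and 54.6 in syd-5, against 35.0 in WT, and q was 0.000567 for all 3 genes in both comparisons. VGT2, a glucose transporter gene of the vacuole, fell to 15.5 FPKM in the unlabelled condition and 16.6 in syd-5, against 26.5 in WT (q = 0.000567 in both).

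Among the enzymes that make and split sucrose, calls went both ways. Of 7 kept invertase genes, 3 rose and 1 fell in each comparison. The shares over all kept loci were 13.7% higher and 14.4% lower in the unlabelled condition, and 13.8% higher and 14.1% lower in syd-5. CWINV6, a cell wall enzyme, had 6.33 FPKM in the unlabelled condition and 6.63 in syd-5, against 2.22 in WT. CWINV1, which splits sucrose in the cell wall, had 58.6 FPKM in the unlabelled condition and 66.0 in syd-5, against 39.6 in WT. CINV2, a neutral invertase gene, fell to 8.18 FPKM in the unlabelled condition and 9.06 in syd-5, against 15.4 in WT, and q was 0.000567 for these 3 genes in both comparisons. Of 12 kept genes of sucrose synthesis and sucrose synthase, 6 rose and 3 fell in the unlabelled condition, and 5 rose and 4 fell in syd-5. The falls in both include AT2G35840, at a merged locus with 5 gene names whose reads cannot be split. The q of that locus was 0.0139 in the unlabelled condition and 0.0354 in syd-5. AT3G52340, to which RefSeq gives the symbol SPP2, also fell in both (q = 0.000567 in both). The sucrose phosphate synthase gene SPS4F (AT4G10120) fell to 38.0 FPKM in the unlabelled condition and 38.3 in syd-5, against 80.7 in WT. The sucrose synthase gene SUS4 was 2.64-fold higher in the unlabelled condition and 5.33-fold higher in syd-5 than in WT, where it had 1.89 FPKM. SUS3 had 18.1 FPKM in the unlabelled condition and 13.2 in syd-5, against 8.22 in WT, and q was 0.000567 for SPS4F, SUS4 and SUS3 in both. SUS1 had 19.6 FPKM in the unlabelled condition and 24.3 in syd-5, against 14.0 in WT (q = 0.00106 in the unlabelled condition and 0.000567 in syd-5).

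Markers of phloem, root and leaf were read in the same table. In bulk samples, fewer cells of a type and less RNA per cell cannot be told apart. Of 12 phloem markers, all kept and none listed at 0, 4 rose, 2 fell and 6 were not called in each comparison. Beside this, 13.7% of kept loci were called higher and 14.4% lower in the unlabelled condition, and 13.8% higher and 14.1% lower in syd-5. The marker NEN4, with 0.865 FPKM in WT, was kept only through syd-5 and the unlabelled condition. The 12 markers summed to 390 FPKM in the unlabelled condition and 378 in syd-5, against 318 in WT. The largest part came from PP2-A1, with 162 FPKM in the unlabelled condition and 157 in syd-5, against 122 in WT. The sum also holds CALS7, uncalled, at a merged locus with 3 gene names. AHA3, the proton pump of companion cells, had 94.1 FPKM in the unlabelled condition and 83.7 in syd-5, against 59.5 in WT (q = 0.000567 in the unlabelled condition and 0.00194 in syd-5). APL, a transcription factor of phloem identity, had 19.1 FPKM in the unlabelled condition and 21.1 in syd-5, against 13.05 in WT (q = 0.00352 in the unlabelled condition and 0.000567 in syd-5). AKT2, a potassium channel gene of the phloem, fell to 2.78 FPKM in the unlabelled condition and 2.45 in syd-5, against 11.5 in WT, and NHL26 to 5.42 FPKM in the unlabelled condition and 5.39 in syd-5, against 11.8 in WT (q = 0.000567 for both genes in both).

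Of 16 root markers, 7 rose and 1 fell in the unlabelled condition, and 7 rose and 0 fell in syd-5. Beside this, 13.7% of kept loci were called higher and 14.4% lower in the unlabelled condition, and 13.8% higher and 14.1% lower in syd-5. The rises in both include CASP2, at a locus merged with AT3G11540, whose reads cannot be split. CASP4 and BRN1, uncalled, were at merged loci too. Of the root markers 2 were kept only through syd-5 or the unlabelled condition. The 16 root markers had summed levels of 2346 FPKM in the unlabelled condition and 2701 in syd-5, against 1876 in WT, most of it from PYK10, which was not called (q = 0.393 in the unlabelled condition and 0.141 in syd-5). The endodermal gene CASP5 had 6.28 FPKM in the unlabelled condition and 7.19 in syd-5, against 2.01 in WT (q = 0.000567 in both). CASP1 had 43.4 FPKM in the unlabelled condition and 52.7 in syd-5, against 24.6 in WT. The root cap gene SMB had 3.95 FPKM in the unlabelled condition and 2.97 in syd-5, against 1.16 in WT, and q was 0.000567 for CASP1 and SMB in both. SCR, a regulator gene of the endodermis, fell to 20.4 FPKM in the unlabelled condition (q = 0.00662) and had 22.5 in syd-5 (q = 0.0891), against 27.6 in WT. WOX5, a gene of the quiescent centre, had 0.540 FPKM in the unlabelled condition (q = 0.105) and 0.303 in syd-5 (q = 0.0526), against 1.38 in WT. Of 10 leaf markers, 1 rose and 3 fell in the unlabelled condition, and 0 rose and 4 fell in syd-5, beside 14.4% of kept loci called lower in the unlabelled condition and 14.1% in syd-5. The falls in syd-5 include PSAD1, at a locus merged with AT4G02760 (q = 0.0264). The summed levels of the leaf markers were 19840 FPKM in the unlabelled condition and 19632 in syd-5, against 27487 in WT. Most of these sums came from RBCS1A (q = 0.376 in the unlabelled condition and 0.423 in syd-5) and RCA (q = 0.310 in the unlabelled condition and 0.331 in syd-5), neither of which was called. The guard cell regulator gene FAMA had 10.11 FPKM in the unlabelled condition and 9.20 in syd-5, against 20.2 in WT (q = 0.000567 in both). The Calvin cycle gene SBPASE had 414 FPKM in the unlabelled condition and 395 in syd-5, against 577 in WT (q = 0.00851 in the unlabelled condition and 0.00106 in syd-5). PRK, of the same cycle, had 840.1 FPKM in the unlabelled condition and 796 in syd-5, against 1244 in WT (q = 0.0158 in the unlabelled condition and 0.00528 in syd-5). LHCA1, an antenna gene, rose in the unlabelled condition (292 FPKM, with 251 in syd-5, against 222 in WT, q = 0.0137 in the unlabelled condition and 0.352 in syd-5). No root or leaf marker was listed at 0, and the part of these tissues in the changes of the SWEET and SUC2 genes was not tested.

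**Figure D5:**
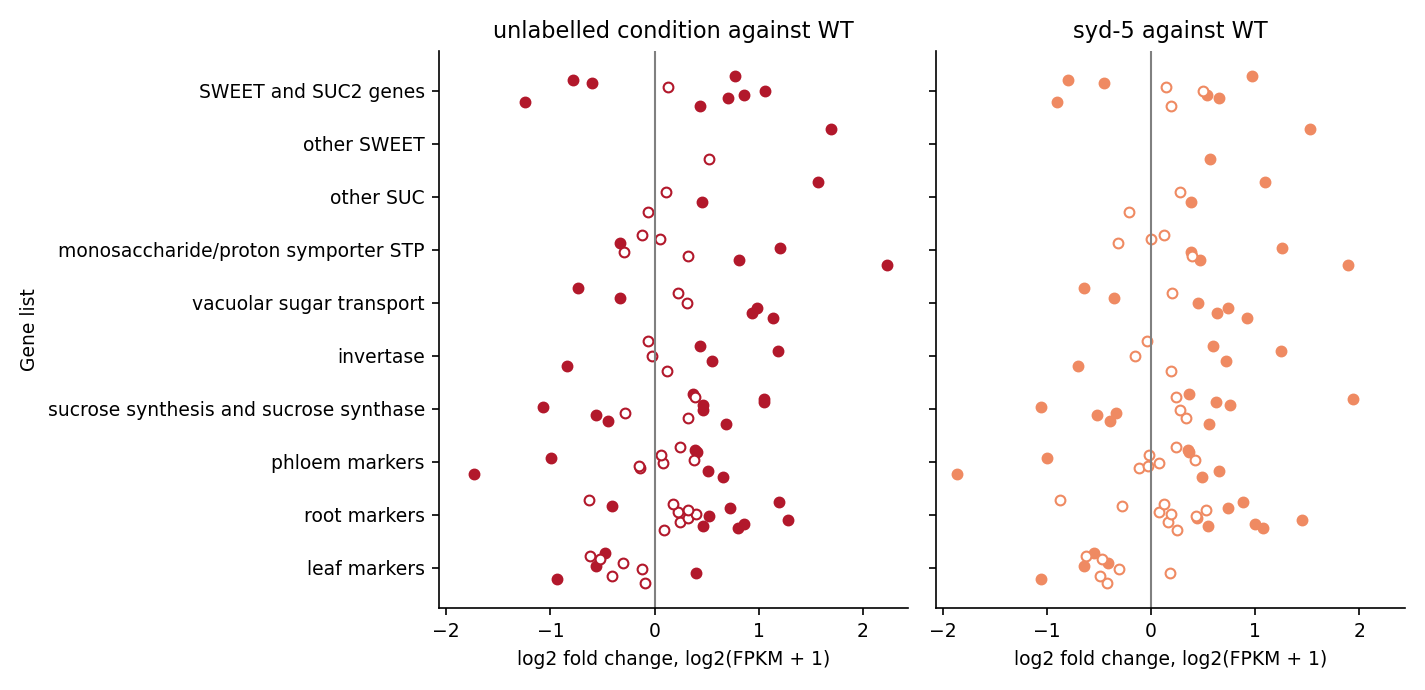
log2 fold change on the scale of log2(FPKM + 1), the unlabelled condition against WT on the left and syd-5 against WT on the right, 1 point per gene that reached 1 FPKM somewhere, filled where q < 0.05. The SWEET and SUC2 genes spread to both sides of 0. In the unlabelled condition, 5 of the 9 kept among them were called higher and 3 lower. SWEET4 and SWEET15, among these rises, were kept only through syd-5 or the unlabelled condition. Of 16 root markers, 7 were called higher, with CASP2 at a merged locus among them, and 1 lower in the unlabelled condition. Among all kept loci, 13.7% were called higher and 14.4% lower there.

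The loci beside the 10 genes on the chromosomes were called at a share near that of all loci. Of 20 flanking loci 12 were tested in each comparison, and 3 rose and 1 fell in each. Over all tested loci, 27.3% were called in the unlabelled condition (13.4% higher and 13.9% lower) and 27.1% in syd-5 (13.6% in each direction). The 12 tested loci are too few to set the directions against these shares. The rises in syd-5 include SWEET10, the neighbour of SWEET13 across a gap of 7075 bp. DI21, the left neighbour of SWEET17, rose, with 137.7 FPKM in the unlabelled condition and 155 in syd-5, against 105 in WT. Its q was 0.0139 in the unlabelled condition and 0.000567 in syd-5. Whether the changes of neighbouring loci are linked was not tested. SWEET15 has NAC083 as its right neighbour, across a gap of 12633 bp. NAC083 had 82.8 FPKM in the unlabelled condition and 82.0 in syd-5, against 118 in WT (q = 0.000567 in both). Of the loci beside SWEET11 and SWEET12, GSA2 next to SWEET11 was the 1 that was tested, and it was not called (q = 0.274 in the unlabelled condition and 0.431 in syd-5).

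Of the 10 genes, 6 were called in both comparisons, and for these the loci with the most similar pair of log2 ratios were looked up among 12288 other loci with 1 gene name and a mean of at least 5 FPKM (12289 for SWEET4, which is itself below that mean). The likeness is a Euclidean distance over only 2 ratios that share WT, so many loci are close. Within a distance of 0.1 there were 18 loci for SWEET1, 95 for SWEET2, 5 for SWEET4, 156 for SWEET11, 29 for SWEET12 and 172 for SWEET17. Nearest to SWEET1 were PLP6, ST4C and MYB13, at distances of 0.010, 0.014 and 0.024. Nearest to SWEET2 were SCL3, COPT6 and AT4G15630 (0.012, 0.014 and 0.017), and nearest to SWEET4 were AT1G30720, AT4G37700 and EXPB1 (0.024, 0.041 and 0.080). Nearest to SWEET11 were AHL1, PHO1 and ATTPS6 (0.0065, 0.0083 and 0.0095), nearest to SWEET12 were TI1, AT5G46090 and AT1G18030 (0.012, 0.020 and 0.026), and nearest to SWEET17 were HAB1, PDF1B and AT3G03770 (0.0077, 0.0098 and 0.016). Of these loci MYB13, which had 15.2 FPKM in the unlabelled condition and 19.5 in syd-5, against 36.5 in WT, is a transcription factor gene, and PHO1, which had 63.7 FPKM in the unlabelled condition and 61.7 in syd-5, against 39.1 in WT, a phosphate exporter gene.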

How the data were processed

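Expression was measured in 9 libraries, 3 biological replicates per labelled genotype, and deposited as 1 table. Per the submitters' processing notes, the tools were Cuffdiff 2.1.1, Cufflinks 2.1.1 and TopHat2 2.1.1, with the TAIR10 build. For their settings, the strandedness and the depth: not given in the sources used here. The authors deposited FPKM values pooled per condition. Per the file headers, the test statistic is a score and each p-value and q-value belongs to a comparison with WT. The p-values cannot be checked against replicates. The deposited log2 column holds text cells, so log2 ratios were recomputed from FPKM.

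Locus starts were raised by 1, which made 36.3% of 28936 single-gene loci match the start of the RefSeq gene (TAIR10.1, used for symbols), against 0.380% without. The standard error of a log2 ratio was its size over the test statistic, divided by 1.74, the median ratio of the normal deviate of p to the statistic. On the scale of the statistic it is wider by that factor. Intervals are 95% and unadjusted. On simulated data for the unlabelled condition against syd-5 over 18382 loci, 55% of simulated log2 differences of 1 were recovered and 83% of those of 2, with noise as the test assumes. The simulated errors of the 2 ratios were independent, whereas in the data both ratios share WT. These recovered shares therefore need not hold for the data. Python 3.11.15, pandas 2.3.3 and scipy 1.17.1 were used.

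The genes and the 9 further lists (100 genes, all found) were chosen with earlier results of these data known. The rule for named genes takes the 10 genes, the 3 called genes per list and comparison with the smallest q (ties to the larger change), and the 3 loci nearest to each gene called in both. Genes named outside it, such as STP5, SCR, WOX5 and the flanking genes, were chosen after their values were seen, and 1 gene the rule names is not reported here. Alternatives were a pseudocount of 0.1 in place of 1, no filter or 5 FPKM, quantile or median ratio scaling, q < 0.01, adjustment within a comparison, loci with 1 gene name and errors on the scale of the statistic.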

Additional observations from a re-analysis of the deposited data

How the results depend on the processing

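No paired analysis was possible because only pooled values are given, and leaving out replicates was not run for the same reason. Of the alternatives, only quantile and median ratio scaling change the FPKM values, so the other repeats kept their direction by construction. Against WT, the 9 genes compared (all but SWEET13) had the same direction in 140 of 140 repeats under the alternatives. Between the unlabelled condition and syd-5 it was the same in 78 of 79, the exception being SWEET16, uncalled, whose log2 difference of -0.01 became 0.01 with median ratio scaling. That scaling moved the log2 ratios to WT of all loci by no more than 0.02, in opposite directions for the unlabelled condition and syd-5. With a filter of 5 FPKM, 3 of the genes still kept rose in the unlabelled condition, against 5 of 9 kept at 1 FPKM. The count is lower because SWEET4 and SWEET15 then drop out. Over all kept loci, 2086 in place of 2529 were then called higher in that condition. With no filter 6 of the 10 genes rose there, with SWEET13, and 2580 of all loci. SWEET4 in the unlabelled condition and SWEET17 in syd-5 did not pass q < 0.01, and SWEET15 passed in syd-5 with adjustment within the comparison. With errors on the scale of the statistic, 3 loci in place of 17 differed between the unlabelled condition and syd-5, and the 95% interval of the ratio to WT included 1 for SWEET17 in syd-5 (0.509 to 1.02), SWEET13 in the unlabelled condition (0.840 to 12.9) and SWEET15 in syd-5 (0.807 to 15.1). Depth is unknown, so no detection limit can be set for SWEET4, SWEET13 and SWEET15.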
